A study of Mus musculus with 4 samples.

Results

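The translation initiation factors were followed in 32D-EpoR cells with and without erythropoietin (Epo), the hormone that drives red cell formation. The genes were taken by a name rule, as every gene on the array whose name in the deposited files begins with Eif and a digit. This rule was chosen with earlier results of these data known. There were 58 such genes among 36315 names on the array, read by 84 of its 55681 probes. A probe was used when both Epo arrays, or both arrays without Epo, showed it well above background. This kept 78 of the 84 probes and 56 of the 58 genes, and 55 of the 56 were well above background on all 4 arrays. The exception, Eif5b, entered through the Epo arrays alone. Neither probe of Eif4e1b, an oocyte form of the cap-binding protein, and neither probe of Eif2c4 was well above background on any array.

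32D-EpoR is a mouse myeloid progenitor line, normally kept alive by interleukin-3 from WEHI-conditioned medium, into which an Epo receptor has been introduced. The cells given Epo received 10 U/ml of it after that medium had been washed away, and the cells without Epo went through the same withdrawal and received none. Both groups therefore lacked WEHI medium and carried the introduced receptor, and the length of the Epo exposure is not stated here. Each group had 2 single-colour Agilent arrays, from 2 experiments on different passages of 1 line, and all 4 arrays shared a slide and a scan. Replicates are thus passages, and p-values measure only the spread between them.

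Initiation factors bring the first tRNA, the messenger RNA and the ribosomal subunits together. The factors eIF1 and eIF1A hold the small subunit in a scanning state, eIF2 delivers the initiator tRNA as a GTP complex, and eIF2B recharges eIF2 with GTP. The multi-subunit eIF3 is the scaffold on the small subunit, the eIF4 proteins bind the cap and unwind the messenger RNA, and eIF5 and eIF5B trigger GTP hydrolysis and subunit joining. The kinases named Eif2ak phosphorylate eIF2 under stress, and the Eif4ebp proteins hold the cap-binding protein eIF4E inactive until mTOR phosphorylates them. The name pattern also takes in the Argonautes, the small-RNA effectors that the array design still lists as Eif2c1 to Eif2c4. They are given apart under their present names Ago1 to Ago4.

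Before the values, the sequences behind some of the genes that rose are shown. RefSeq promoter windows on GRCm38.p6, from 250 bases before to 50 after the start, were matched by symbol for 44 of the 56 genes. The genes with none were Eif1a, Eif2b3, Eif3e, Eif3h, Eif3i, Eif4e3, Eif4ebp1, Eif4ebp3, Eif4g2, Eif5al3-ps, Eif6 and Ago2. The following 3 stretches end at the base before the start and belong to the rising genes whose window holds the E-box or the STAT-type motif. Eif1ad, Eif2b4, Eif3d and Eif4e2 also rose and hold only the ETS core, and are not shown. The capitals mark the E-box CACGTG, to which MYC and its partner bind, the STAT-type motif TTCNNNGAA and the ETS core CCGGAAG. The Eif4e stretch is chr3:138527018-138527267 on the plus strand, that of Eif4a1 is chr11:69672424-69672673 on the minus strand, and that of Eif3g is chr9:20898591-20898840 on the minus strand.
Eif4e: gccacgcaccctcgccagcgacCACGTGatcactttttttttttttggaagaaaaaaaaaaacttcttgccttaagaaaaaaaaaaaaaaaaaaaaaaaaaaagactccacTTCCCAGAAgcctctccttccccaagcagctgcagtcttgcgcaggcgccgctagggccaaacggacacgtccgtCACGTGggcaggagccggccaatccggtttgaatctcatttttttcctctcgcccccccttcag
Eif4a1: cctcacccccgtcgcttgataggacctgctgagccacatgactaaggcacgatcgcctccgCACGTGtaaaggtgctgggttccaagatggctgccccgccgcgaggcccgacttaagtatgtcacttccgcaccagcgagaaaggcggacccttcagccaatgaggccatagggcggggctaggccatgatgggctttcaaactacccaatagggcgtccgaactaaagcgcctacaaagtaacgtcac
Eif3g: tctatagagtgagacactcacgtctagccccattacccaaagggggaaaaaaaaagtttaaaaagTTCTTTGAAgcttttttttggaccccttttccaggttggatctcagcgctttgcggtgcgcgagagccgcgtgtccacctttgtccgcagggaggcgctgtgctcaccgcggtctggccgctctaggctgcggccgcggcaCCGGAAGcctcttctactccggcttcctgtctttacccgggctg

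In the Eif4e window the E-boxes begin at positions -228 and -64 and the STAT-type motif at -139. In Eif4a1 the E-box begins at -189, and Eif3g holds the STAT-type motif at -185 and the ETS core at -44. Both strands were searched, and the motifs do not overlap in these stretches. The E-box was present for 10 of the 44 matched genes, or 22.7%, against 11.7% of the 9507 tested genes with a window. Among the genes that rose it was present in 2 of 14, and among those that did not pass the test in 8 of 29. The ETS core was found for 17 of 44 genes, or 38.6%, against 20.9% of the tested genes, and the STAT-type motif for 5 of 44, or 11.4%, against 8.55%. The ETS core was present in 5 of 14 genes that rose and 11 of 29 that did not pass. For the STAT-type motif these were 2 of 14 and 3 of 29. The cyclic AMP response element TGACGTCA was found for 0 of 44, against 3.69% of the tested genes. Over all 32851 windows of this length, 7.15% held the E-box, 8.30% the STAT-type motif, 8.86% the ETS core and 1.79% the cyclic AMP element. These matches describe letters in a window and were not tested as binding sites.

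Of the 56 genes, 18 rose with Epo, 1 fell and 37 did not pass the test, which was limma's moderated test with Benjamini-Hochberg adjustment over all 17555 genes and a threshold of 0.05. The share that rose was 32.1%, beside 13.1% of all genes tested. Falls made up 14.3% of all genes, and calls in either direction 27.4%. Leaving out Eif5b, which passed the filter only where it was high, 17 of 55 rose, or 30.9%. The median change of the 56 genes was 0.34 on the log2 scale, beside -0.06 over all genes. Of the 56 changes, 45 lay above 0, or 80.4%, beside 45.2% of all genes. In 34 genes both Epo arrays lay above both arrays without Epo, against 30.4% of all genes, and in 5 both lay below, against 38.4%.

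The values are log2 signals after each array was set to a common 75th percentile, so that every change is relative to the other genes. Arrays with Epo were brighter before this step, and without it the median over all genes lay at 0.68. Over all genes 2302 rose and 2502 fell, against 8231 and 364 without scaling, and 1876 and 3657 with the percentile taken over probes detected on all arrays. The rises ran from 0.46 to 2.07 on the log2 scale. All 18 were present in both replicate numbers, which already follows from their groups not overlapping. The largest change that did not pass, in Eif3a, was 0.81. With single arrays left out, the number of rises was 12 and 10 without replicates 1 and 2 of the group without Epo, and 4 and 5 without replicates 1 and 2 of the Epo group. Over all genes the rises numbered 2017, 1559, 1098 and 1212 in those fits, against 2302 with all arrays. Eif1a, Eif2b3 and Eif3j1 kept their calls in all 4 of these fits, and each of the other 16 called genes lost its call in at least 1 of them (limma adjusted p up to 0.228). When the filter on dim probes was dropped, limma called 0 of 36310 genes, with 7148 at an unadjusted p under 0.05.

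**Figure D1:**
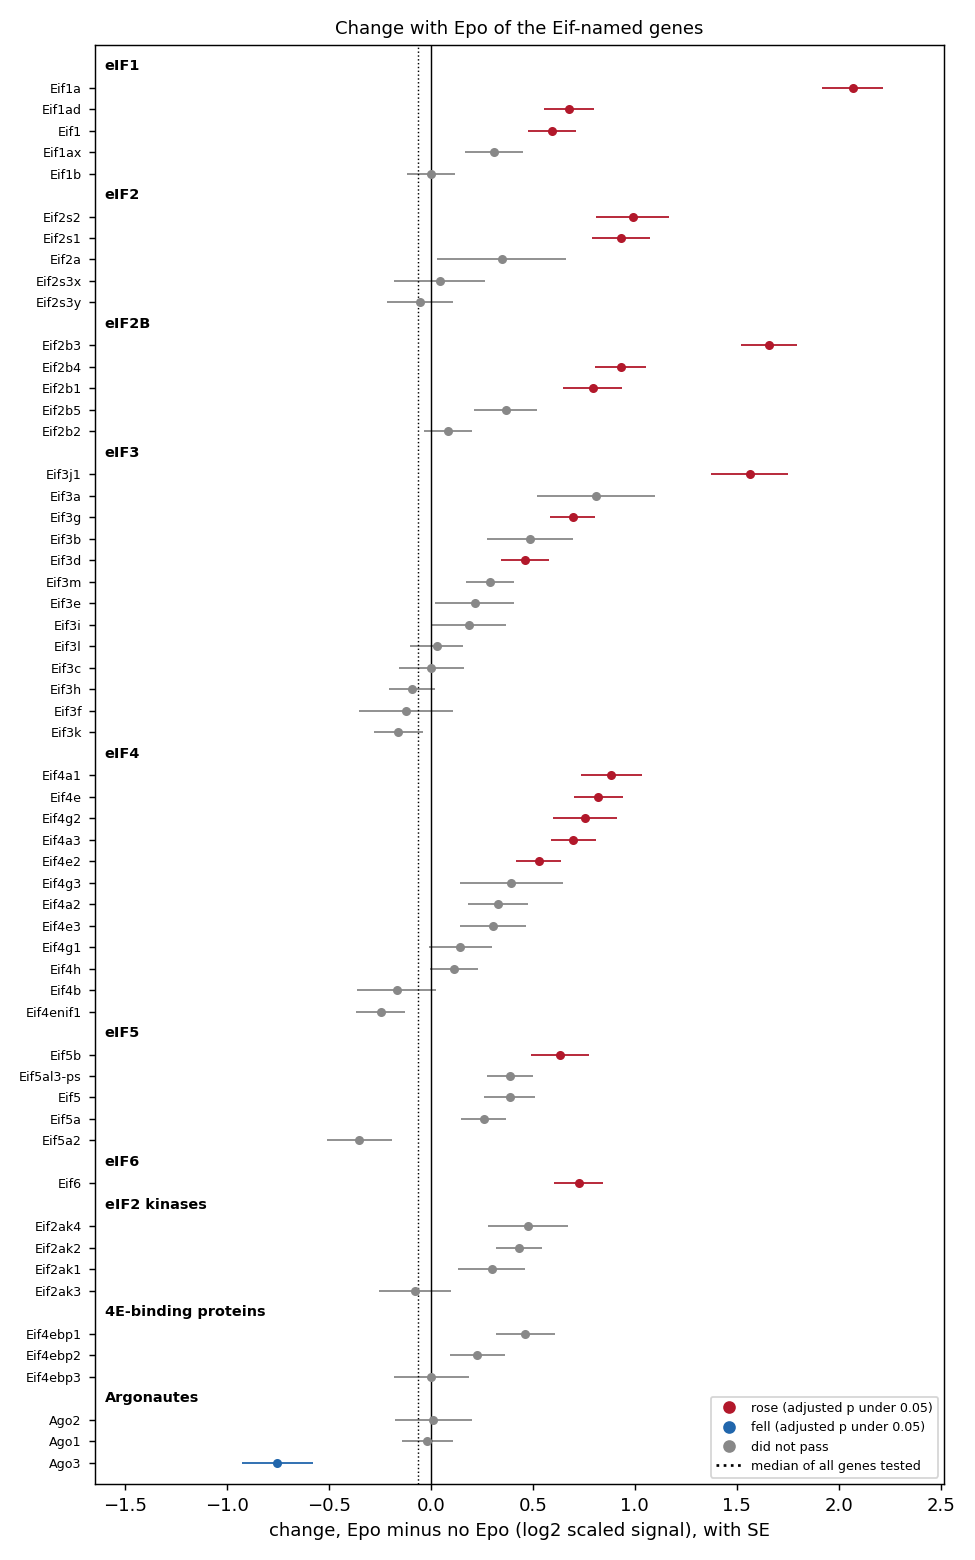
Change of each of the 56 Eif-named genes with Epo, as the mean log2 scaled signal of the 2 Epo arrays minus that of the 2 arrays without Epo. Points are changes and bars are standard errors, genes are grouped by complex, and the dotted line is the median of all genes at -0.06. Eif1a, Eif2b3 and Eif3j1 lie above 1.5, most eIF3 subunits lie near 0, and Ago3 is the single called fall at -0.75.

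Across the arrays, 41.3% to 47.9% of probes were well above background, and between 76 and 79 of the 84 Eif probes were. Of 14 myeloid progenitor markers on the array, 12 were detected on all 4 arrays, among them Mpo, Elane, Prtn3 and Cebpa, while the receptor gene Kit was on none. The summed linear signal of the tested myeloid markers was 225410 and 239690 with Epo and 255420 and 265090 without Epo. Of the 13 tested, Csf2rb2 rose past the test, by 0.49, and Cebpa and Cebpe fell past it (-0.74 and -0.54). The other myeloid markers did not pass, and the median of the list was -0.29. Of 7 erythroid markers 4 were detected on all arrays, and the sums were 8832 and 9207 with Epo and 13992 and 16269 without. In this list Gata1 fell by 0.68, and Epor also fell, to 0.33 of its level without Epo (limma adjusted p 0.00820). The other tested genes of the list, Klf1 and Hba-a1, had changes of -0.10 and -0.19 and did not pass. An Epo receptor was introduced into this line, so Epor may not mark erythroid cells here. The erythroid sums include Epor. Whether the Epor probe reads the introduced receptor was not tested. Of 8 lymphoid markers 4 were detected, with Cd79a, Cd8a and Ms4a1 among those on none, and the sums were 1446 and 1576 with Epo and 2604 and 2693 without. The 4 detected genes Cd3d, Cd79b, Cd4 and Cd3e all fell past the test, with changes of -0.45, -0.77, -0.81 and -1.14. Of 5 macrophage markers 3 were detected, with Mrc1 on none, and the sums were 4442 and 4763 with Epo and 3639 and 3555 without. Their members moved in opposite directions, with Adgre1 up by 1.03 and Csf1r at -0.79, both past the test, and Cd68 at 0.08. Of 6 stromal and endothelial markers 3 were detected on all arrays, and the sums were 1374 and 1566 with Epo and 1165 and 1096 without. That sum was mostly Pecam1, which rose by 0.75, while Cdh5 and Pdgfrb fell (-0.54 and -2.45) and the list's median was -0.54. The part of these shifts in the results was not tested. In bulk RNA of this kind, a change in the cells present and a change in RNA per cell cannot be told apart.

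The start-codon factors held the largest rise. Eif1a, which encodes eIF1A, had log2 signals of 13.87 and 13.63 with Epo, against 11.77 and 11.60 without Epo. The groups stood far apart, and the level rose by 2.07 ± 0.15 (log2, SE), which is 4.19-fold (limma adjusted p 0.00485). Of all genes tested, 99.0% had a smaller change. Its X-linked counterpart Eif1ax, which encodes a nearly identical protein, had 14.73 and 14.58 with Epo, against 14.47 and 14.23 without, and its change of 0.31 ± 0.14 did not pass (adjusted p 0.175). Whether the probe of either gene also reads the other was not tested.

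Eif1, the factor that guards start-codon choice, had 16.27 and 16.17 with Epo and 15.67 and 15.58 without. It rose by 0.59 ± 0.12 (adjusted p 0.0278). This call was lost with any 1 array left out, where the change ran from 0.54 to 0.64. Eif1ad, named for its eIF1A-like domain, had 14.61 and 14.52 with Epo, against 13.82 and 13.95 without, a rise of 0.68 (adjusted p 0.0220), and a second probe for it rose by 0.70. Eif1b, a close relative of Eif1, stayed between 13.20 and 13.32 on all arrays, with overlapping groups. The eIF1 group thus had 3 rises among its 5 genes, beside 13.1% of all genes.

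Among the eIF2 subunits, the alpha and beta genes rose and the gamma genes did not pass. Eif2s1, the alpha subunit that the stress kinases phosphorylate, had 13.86 and 13.71 with Epo and 12.96 and 12.74 without. The rise was 0.93 ± 0.14, or 1.91-fold (adjusted p 0.0154). Eif2s2, the beta subunit, had 14.59 and 14.30 with Epo, against 13.62 and 13.29 without, a rise of 0.99 ± 0.18 (adjusted p 0.0223). In both genes each Epo array lay above each array without Epo.

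The gamma subunit, which binds GTP and the initiator tRNA, is encoded by Eif2s3x on the X and Eif2s3y on the Y chromosome. Eif2s3x had 11.84 and 11.44 with Epo and 11.81 and 11.38 without, and Eif2s3y had 12.11 and 11.86 with Epo and 12.16 and 11.91 without. Their changes were 0.04 ± 0.22 and -0.05 ± 0.16, and the groups overlapped in both. In each, replicate 1 was above replicate 2 in both groups. A second Eif2s3x probe gave 0.46 (SE 0.43) and did not pass. Eif2a, an alternative tRNA-binding factor outside the eIF2 trimer, changed by 0.35 (SE 0.32) with overlapping groups.

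In eIF2B, the exchange factor that returns eIF2 to its active form, 3 of 5 subunits rose, beside 13.1% of all genes. Eif2b3, the gamma subunit of its catalytic part, had 11.60 and 11.44 with Epo, against 9.96 and 9.77 without. The rise was 1.66 ± 0.14, or 3.16-fold, with an adjusted p of 0.00557. Its probe lies at chr4:116739087-116739146 in mm9, and a second probe at chr4:116731398-116731457 rose by 1.52. Whether a probe lies in coding or untranslated sequence was not analysed here.

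Eif2b4, the delta subunit of the regulatory part, had 13.01 and 13.19 with Epo and 12.16 and 12.17 without, a rise of 0.93 ± 0.13 (adjusted p 0.0120). Eif2b1, the alpha subunit, had 12.35 and 12.55 with Epo and 11.56 and 11.76 without, a rise of 0.79 ± 0.15 (adjusted p 0.0230). The groups did not overlap in either gene. The catalytic epsilon subunit Eif2b5 changed by 0.37 (adjusted p 0.146), which was 0.0453 with the replicate number as a block and ran from 0.00237 to 0.448 over 13 alternatives. Eif2b2, the beta subunit, changed by 0.08 (SE 0.12).

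**Figure D2:**
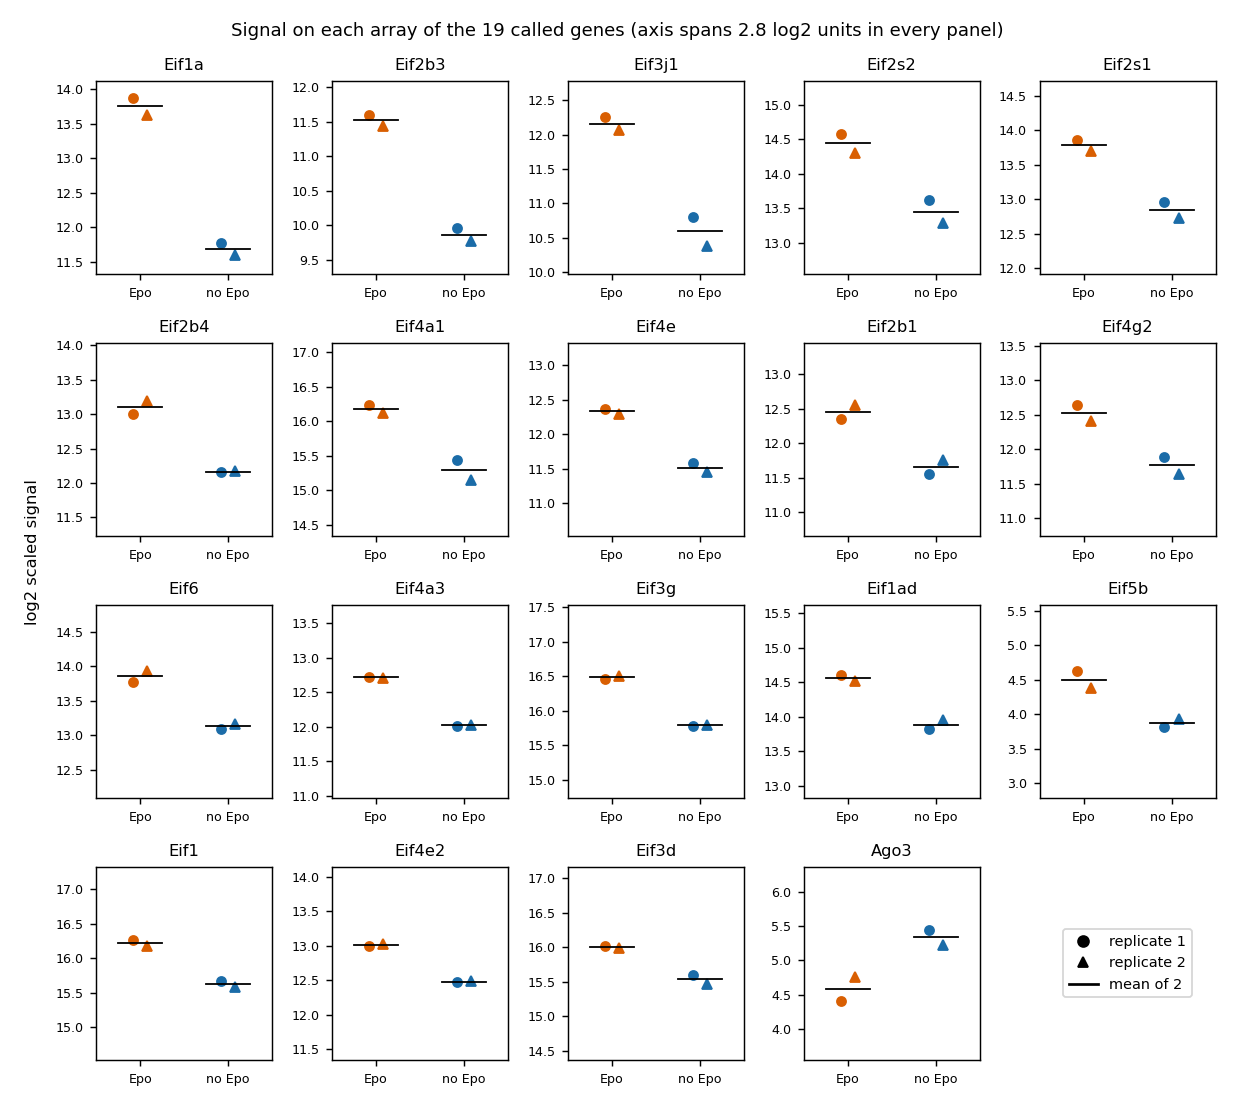
Log2 scaled signal on each array of the 19 genes that passed the test, with Epo arrays left, arrays without Epo right, circles for replicate 1, triangles for replicate 2 and a line at the mean. The vertical axis spans 2.8 log2 units in every panel, around the mean of that gene, and the groups do not overlap in any of the 19 genes. The steps of Eif1a, Eif2b3 and Eif3j1 exceed 1.5, and Ago3 is lower with Epo.

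In eIF3 3 of 13 genes rose and none fell, beside 13.1% and 14.3% of all genes, and the median change was 0.21. With the replicate block the rises numbered 5, beside 19.9% of all genes. Eif3j1, listed as Eif3j in the files, encodes the loosely bound subunit that helps seat and release eIF3 on the small ribosomal subunit. It had 12.25 and 12.06 with Epo, against 10.81 and 10.38 without. The rise was 1.56 ± 0.19, or 2.95-fold, with an adjusted p of 0.00990. Its other probes rose as well, by 0.87 and 0.93, so the direction was shared by 3 probes while the size was not. The 60 bases of the probe with 0.87 are spread over 431 bases of the genome and so cross an exon junction. They lie at chr2:121866905-121867335 (mm9, plus strand) and are shown because their sequence is that of spliced RNA. Whether this probe also reads other genes was not tested.
Eif3j1 probe: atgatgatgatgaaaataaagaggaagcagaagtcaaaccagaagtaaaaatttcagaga

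Eif3g, an RNA-binding subunit, had 16.47 and 16.50 with Epo and 15.78 and 15.79 without. Replicates lay close together, and the rise was 0.70 ± 0.11 (adjusted p 0.0165). Eif3d, a subunit with cap-binding activity of its own, had 16.01 and 15.98 with Epo, against 15.60 and 15.47 without. Its rise of 0.46 ± 0.12 was the smallest that passed (adjusted p 0.0488), and its call was lost with the percentile taken over detected probes, in the fit on single probes, and with any 1 array left out (adjusted p 0.000889 to 0.228 over 13 alternatives).

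The remaining eIF3 subunits ran from -0.16 in Eif3k to 0.81 in Eif3a. Eif3a, the largest scaffold subunit, had 13.30 and 12.76 with Epo and 12.52 and 11.91 without, with replicate 1 above replicate 2 in both groups. Its adjusted p was 0.104, or 0.0139 with the replicate block, and ran from 1.41e-05 to 0.290 over 13 alternatives. Eif3b, which joins Eif3a in the core, changed by 0.49 (adjusted p 0.155, or 0.0255 with the replicate block, 0.000695 to 0.454 over 13 alternatives).

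Eif3c, Eif3e, Eif3f, Eif3h, Eif3i, Eif3k, Eif3l and Eif3m, structural subunits of the complex, had changes between -0.16 and 0.29 and did not pass. Eif3h, for example, had 16.75 and 16.76 with Epo and 16.88 and 16.82 without. The second probe of Eif3c gave -0.37 beside 0.00 for the first, and neither passed.

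In the eIF4 group 5 of 12 genes rose and none fell, beside 13.1% and 14.3% of all genes. Eif4a1, the main helicase of the cap complex, had 16.24 and 16.12 with Epo and 15.44 and 15.15 without. It rose by 0.89 ± 0.15, or 1.85-fold (adjusted p 0.0190). Eif4e, the cap-binding protein, had 12.37 and 12.30 with Epo, against 11.58 and 11.45 without. Its rise was 0.82 ± 0.12, or 1.77-fold (adjusted p 0.0140), and a second kept probe rose by 0.72. The third part of the cap complex, the scaffold Eif4g1, had 13.94 and 14.01 with Epo and 13.67 and 13.99 without, and its change of 0.14 ± 0.15 did not pass (adjusted p 0.519).

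Eif4g2, also called DAP5, lacks the eIF4E-binding part of the main scaffold and serves cap-independent initiation. It had 12.63 and 12.40 with Epo and 11.89 and 11.64 without, a rise of 0.75 ± 0.16 (adjusted p 0.0307). Eif4a3, the helicase of the exon junction complex rather than of initiation, had 12.72 and 12.71 with Epo, against 12.02 and 12.02 without, a rise of 0.70 ± 0.11 (adjusted p 0.0162). Eif4e2, a cap-binding relative linked to repression, rose by 0.53 (adjusted p 0.0306), a call lost under quantile normalization, with the percentile over detected probes and with any 1 array left out (0.000439 to 0.179 over 13 alternatives).

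The other eIF4 genes did not pass. The second helicase Eif4a2 changed by 0.33, Eif4g3 by 0.39, the cap-binding relative Eif4e3 by 0.30 and the helicase cofactor Eif4h by 0.11. Eif4b, the other helicase cofactor, changed by -0.17, and Eif4enif1, the transporter that takes eIF4E into the nucleus, by -0.25. Both probes of Eif4g3 and both of Eif4a2 disagreed in sign, at 0.39 and -0.11 and at 0.33 and -0.06, with no call among them.

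Among the later factors, Eif6, which keeps the large ribosomal subunit from joining too early and acts in its assembly, had 13.78 and 13.93 with Epo and 13.10 and 13.17 without. It rose by 0.72 ± 0.12, or 1.65-fold (adjusted p 0.0190), with 0.79 on a second probe. Eif5, the GTPase activator of eIF2, had 13.86 and 13.94 with Epo and 13.60 and 13.43 without. Its change of 0.39 did not pass (adjusted p 0.0850), and its second probe gave 0.37. Eif5a, the hypusine-bearing factor that now counts chiefly as an elongation factor, had 14.83 and 14.83 with Epo and 14.57 and 14.57 without, a change of 0.26 (adjusted p 0.147).

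Eif5al3-ps, an Eif5a-like pseudogene whose probe may also read Eif5a, changed by 0.39 (adjusted p 0.0663, or 0.0346 with the replicate block, 0.00188 to 0.285 over 13 alternatives). Eif5a2, the second Eif5a gene, changed by -0.35 (adjusted p 0.170, or 0.0396 with the replicate block, 0.0396 to 0.547 over 13 alternatives). Eif5b, the subunit-joining GTPase, had the dim signals of 4.62 and 4.38 with Epo, against 3.81 and 3.93 without. Both arrays without Epo left it short of the background criterion, so no fold is given from these signals. With only those arrays raised to their lowest signal well above background, the Epo to no Epo ratio of Eif5b was 0.92. This is a lower bound on the ratio and not an estimate of it. Its call (adjusted p 0.0366) did not hold when only detected probes set the percentile or with any 1 array left out, and with the normexp background the difference was -0.28.

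None of the 4 eIF2 kinases passed the test, beside 27.4% of all genes called in either direction. With the replicate block 2 of the 4 rose, beside 19.9% of all genes. Eif2ak4, the kinase GCN2 that senses uncharged tRNA, had 11.01 and 10.73 with Epo and 10.60 and 10.20 without. Its change was 0.48 (adjusted p 0.137, or 0.0298 with the replicate block, 0.000779 to 0.426 over 13 alternatives). Eif2ak2, the double-stranded RNA sensor PKR, had 9.92 and 9.98 with Epo, against 9.56 and 9.48 without. The 2 groups did not overlap, and the change of 0.43 lay just short of the threshold (adjusted p 0.0531, or 0.0351 with the replicate block, 0.00123 to 0.248 over 13 alternatives).

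Eif2ak1, the heme-regulated kinase HRI, which restrains translation in red cell precursors when heme is short, had 8.49 and 8.79 with Epo and 8.24 and 8.44 without. Its change of 0.30 ± 0.16 did not pass (adjusted p 0.233). Eif2ak3, the endoplasmic reticulum kinase PERK, had 9.66 and 9.29 with Epo and 9.65 and 9.45 without, with overlapping groups and a change of -0.08 ± 0.18. Kinase activity is set by phosphorylation and is not read by these arrays.

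None of the 3 genes of the 4E-binding proteins passed either, again beside 27.4% of all genes called. With the replicate block 1 of the 3 rose, beside 19.9% of all genes. Eif4ebp1 had 13.16 and 13.26 with Epo and 12.61 and 12.88 without. Its change was 0.46 ± 0.15 (adjusted p 0.0790, or 0.0359 with the replicate block, 0.000890 to 0.278 over 13 alternatives). Eif4ebp2 had 12.76 and 12.63 with Epo, against 12.57 and 12.37 without, a change of 0.23 (adjusted p 0.264). Eif4ebp3 had 10.71 and 11.07 with Epo and 10.76 and 11.02 without, and its groups overlapped fully. The cap-binding gene Eif4e therefore passed while its 3 binding proteins did not, and the difference between these changes was not tested.

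Of the Argonautes, the slicer gene Ago2 is read by 2 kept probes that disagreed. The brighter had 11.67 and 11.26 with Epo and 11.55 and 11.35 without, with overlapping groups and a change of 0.01 ± 0.19. The dimmer, at chr15:72935705-72935764 in mm9, had 9.24 and 9.39 with Epo and 10.12 and 10.23 without, and fell by 0.86 in the fit on single probes (adjusted p 0.0153). Which of them stands for the gene was not tested. Ago1 changed by -0.02 (SE 0.13).

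Ago3 was the single called fall among the 56 genes. It had 4.41 and 4.75 with Epo, against 5.44 and 5.23 without, a dim signal on every array. The fall was -0.75 ± 0.17 (adjusted p 0.0386), and with the replicate block the adjusted p was 0.0536 (0.0130 to 0.985 over 13 alternatives, 6 of which kept the call). Without scaling its difference was -0.01.

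**Figure D3:**
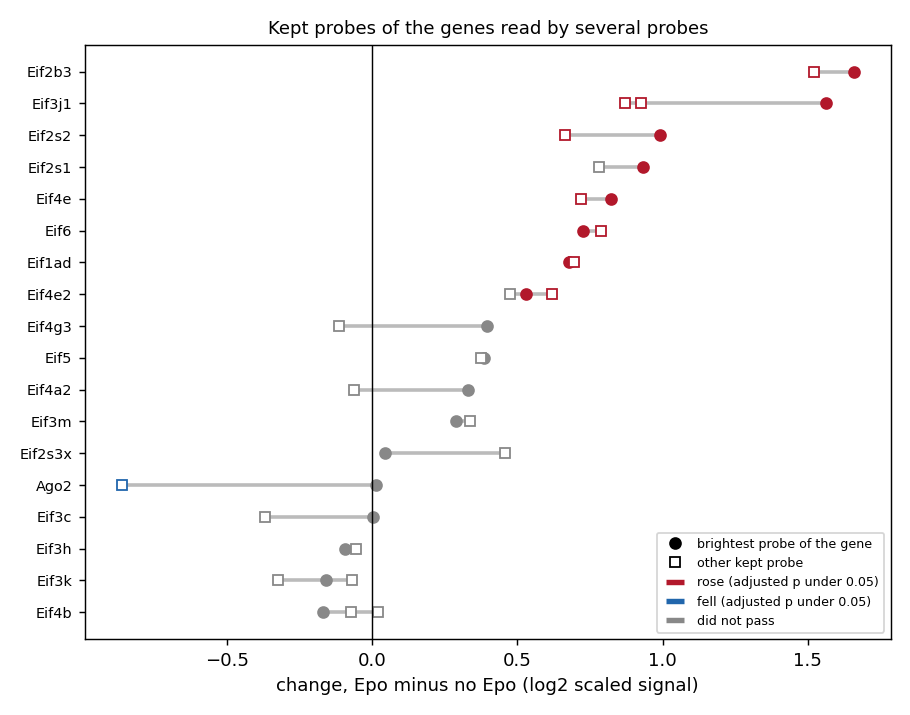
Change with Epo on every kept probe of the 18 genes read by several kept probes. Filled circles are the brightest probe of each gene, open squares the others, and colour gives the call of each probe in the fit on single probes. Probes of Eif2b3, Eif3j1, Eif2s2, Eif4e, Eif6 and Eif1ad all rose, and those of Ago2 lie farthest apart, at 0.01 and -0.86.

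Agreement between probes was examined for the 18 genes with several kept probes. In 15 of them all kept probes shared 1 verdict, either all called or none called. The exceptions were Ago2, Eif2s1 and Eif4e2. Probes of opposite sign occurred in 5 genes, namely Ago2, Eif3c, Eif4a2, Eif4b and Eif4g3. The median spread of the change among the probes of a gene was 0.17, beside a median standard error of 0.15. In the fit on single probes, 25 of 78 Eif probes rose and 2 fell, beside 13% and 12.9% of all probes.

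With the replicate number as a block, 25 of the 56 genes rose and 1 fell, beside 19.9% and 23.2% of all genes. All 18 rises were kept, and the added ones were Eif2b5, Eif3a, Eif3b, Eif5al3-ps, Eif2ak2, Eif2ak4 and Eif4ebp1. The fall was then Eif5a2, while Ago3 no longer passed.

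The other genes of translation were compared through lists that hold 56 genes on the array, of which 53 were tested, 14 rose and 2 fell, beside 13.1% and 14.3% of all genes. Their median change was 0.35, and with the replicate block 24 rose and 6 fell, beside 19.9% and 23.2% of all genes. Among the 8 elongation genes tested the median was -0.27. Eef1e1 rose by 2.86 ± 0.26 (adjusted p 0.00627), with 13.21 and 12.84 with Epo and 10.46 and 9.86 without. Eef1e1 is named with the elongation factors, yet it encodes a scaffold protein of the tRNA synthetase complex. The kinase Eef2k, which inhibits elongation factor 2, fell by 0.86 (adjusted p 0.0125), with 10.28 and 10.16 with Epo and 11.10 and 11.06 without. Its call was lost without replicate 2 of the Epo group and without scaling, where the difference was -0.12 (adjusted p up to 0.765 over 13 alternatives). The elongation factor genes Eef1a1, Eef1b2 and Eef2 had changes of -0.47, -0.28 and -0.41 and did not pass, although Eef1a1 did with the replicate block. Eef1d and Eef1g, of the same complex as Eef1b2, had changes of 0.13 and 0.09.

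Of 8 termination and recycling genes 5 rose and none fell, beside 13.1% and 14.3% of all genes, with a median of 0.62. Mcts2, a retrogene copy of the recycling factor gene Mcts1, rose by 1.61 (adjusted p 0.00531), and the rescue factor Pelo by 0.90 (adjusted p 0.0110), while Mcts1 itself changed by 0.10. The poly(A) group had 2 rises among 7 genes, beside 13.1% of all genes. These were the RNA-binding Larp4 at 1.65 (adjusted p 0.00484) and Larp1, which controls messages with a terminal oligopyrimidine tract, at 1.28 (adjusted p 0.0214). With the replicate block the poly(A) group had 4 rises and 1 fall, beside 19.9% and 23.2% of all genes. The poly(A)-binding protein genes Pabpc1 and Pabpc4 changed by -0.18 and 0.04. Of 6 genes for helicases and hypusination 3 rose, or 5 with the replicate block, beside 13.1% and 19.9% of all genes. The largest of these rises were Dhx33 at 1.44 and Dhx29, which opens structured leaders on the small subunit, at 0.93.

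Among 15 regulators acting on initiation factors 2 rose and 1 fell, shares near or below the 13.1% and 14.3% of all genes. The cap-binding complex gene Ncbp2 rose by 0.95 (adjusted p 0.0218), and Rps6kb1, the S6 kinase gene that lies downstream of mTOR, by 0.65. Mknk2, one of the kinases that phosphorylate eIF4E, fell by 0.55 (adjusted p 0.0418), although it lay at 0.19 without scaling. With the replicate block 6 of these regulators rose and 3 fell, beside 19.9% and 23.2% of all genes. Of 9 mitochondrial translation factors Gfm1 alone rose, by 0.52 (adjusted p 0.0428), a share near that of all genes, and 2 rose with the replicate block. The Gfm1 call held in 6 of 13 alternatives, with an adjusted p up to 0.182, and was lost with any 1 array left out. In this group the initiation factors Mtif2 and Mtif3 changed by -0.02 and -0.16.

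**Figure D4:**
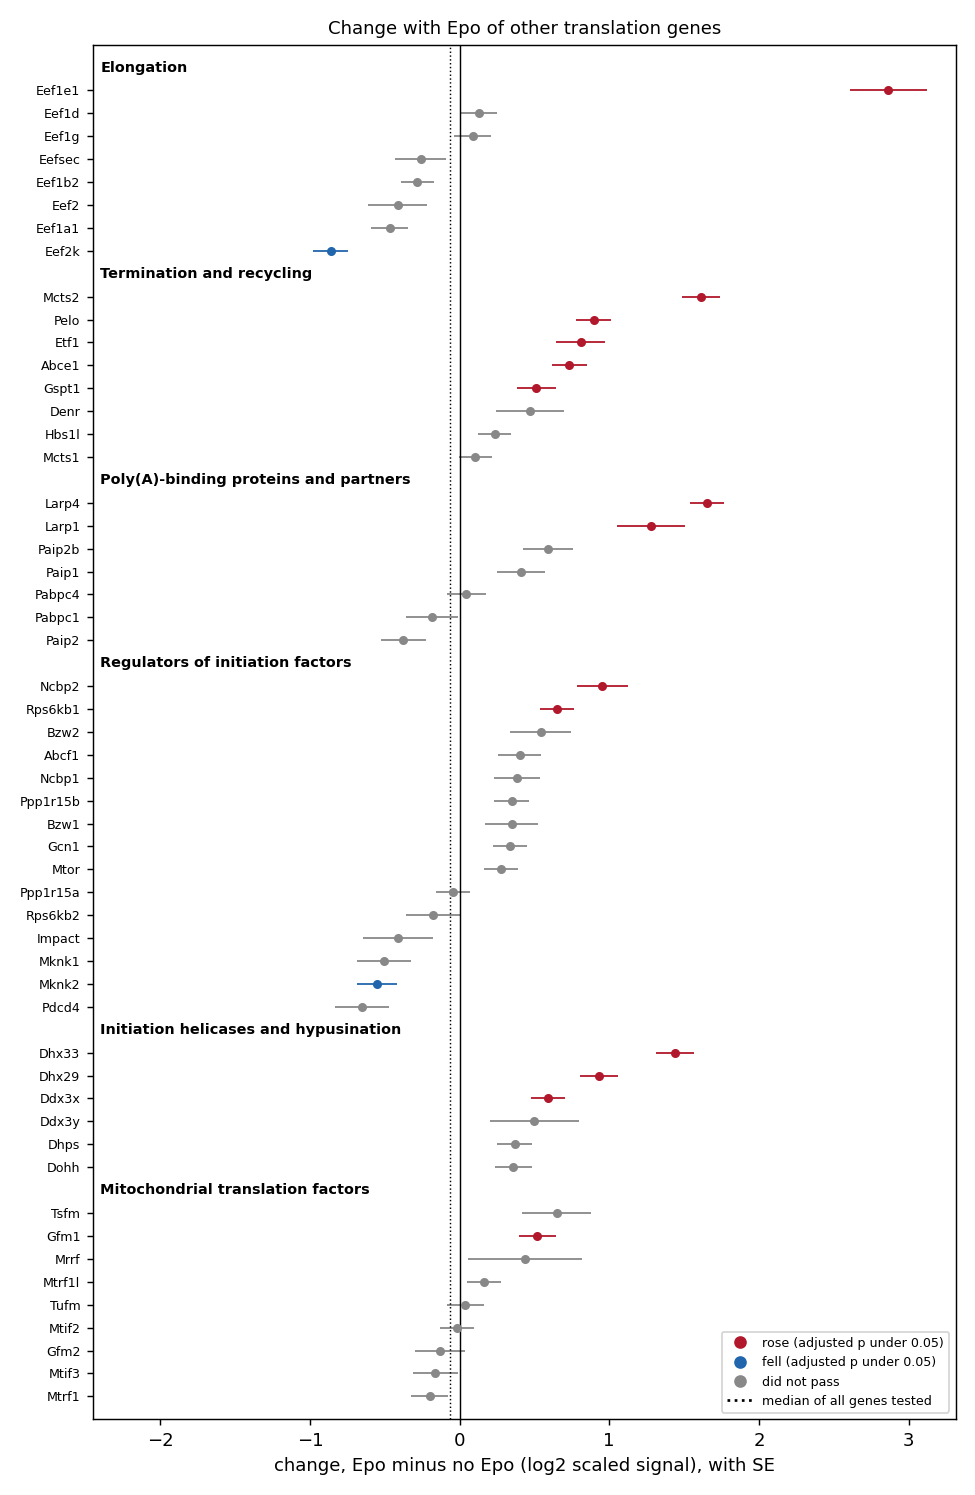
Change with Epo of 53 other translation genes, in log2 scaled signal as the mean of 2 Epo arrays minus the mean of 2 arrays without Epo, with standard errors. Genes are grouped by their step in translation, and the dotted line is the median of all genes tested. Termination and recycling genes lie above 0, while most elongation factors lie below 0, with Eef1e1 apart at 2.86.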

How the data were processed

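Total RNA of 4 samples was labelled with Cy3, per the labels' protocols, and hybridised to Agilent arrays. The deposited files hold a processed intensity for each of 62976 spots, which Feature Extraction 10.1.1.1 had corrected for background and spatial trends without scaling between arrays, per the file headers. They also hold the raw mean intensity and the local background intensity, per the file headers. The submitters' processing notes name limma, with no version or role.

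From these, processed intensities were put on the log2 scale and each array's 75th percentile over non-control spots (347 and 454 with Epo, 224 and 250 without) was subtracted, with the mean percentile added back. Dropping spots with outlier flags cost 9 probes, and 0 spots were saturated. The background filter kept 23735 probes, and each of 17555 genes was represented by its brightest kept probe. Names were updated through a RefSeq table of GRCm38.p6: 26413 probes by accession, 3859 by symbol and 735 by synonym, while 24674 kept the file's name. Epo was compared with no Epo by limma 3.58.1 in R 4.3.3, two-sided, with 4.57 total degrees of freedom and Benjamini-Hochberg adjustment. Values of single arrays are printed in place of an SD. With 2 arrays per group, the number of arrays limits the precision (median SE 0.15).

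The design text describes 2 experiments on different passages. Taking each replicate number as 1 experiment pairs the arrays. Same-numbered deviations correlated at 0.386 across genes. The block leaves 1 residual degree of freedom and lowers the median SE from 0.145 to 0.0793.

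Every Eif gene may be named. Array values are given for up to 4 rises and 3 falls per complex and for all Eif2ak and Eif4ebp genes, and up to 2 rises and 2 falls are named from each other translation list. Array values of other Eif genes, and other names from those lists, were picked with their values in view. The members and lists were chosen with earlier results of these data known. Alternatives changed the background, scaling, filter, probe rule, block or arrays, one at a time.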

Additional observations from a re-analysis of the deposited data

How the results depend on the processing

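Alternatives covered background, scaling, filter, probe choice, the replicate block and the arrays left out. The 18 rises of Eif genes became 47 without scaling and 0 without a filter on dim probes, and lay between 4 and 12 with 1 array left out. The 1 fall became 0 under quantile normalization, without scaling, without the filter and with Argonautes, kinases and 4E-binding proteins left aside, and lay between 0 and 1 with 1 array left out. Over all genes, the 2302 rises became 8231 without scaling, 0 without the filter and 3497 with the replicate block, and 1098 to 2017 with 1 array left out. The 2502 falls became 364, 0 and 4068 in those settings, and 1175 to 1946 with 1 array left out. Without the filter limma tested 36310 genes and called 0, with 7148 at an unadjusted p under 0.05, 18 of them Eif genes. The median change of the Eif genes, 0.34, was 0.43 with the normexp background, 0.21 with the percentile over detected probes and 1.09 without scaling, and 0.30 to 0.35 with 1 array left out. It lay above the median of all genes by 0.32 to 0.78 in these 13 alternatives, the highest without the filter. There the Eif median stayed at 0.34, while that of all genes was -0.44. Without scaling the median of all genes was 0.68, and the Eif median lay 0.40 above it, as in the main fit. The cause of these shifts was not tested.

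Directions of the 18 rises held in these alternatives except that of Eif5b, at -0.28 with the normexp background. Genes that were not called changed sign as follows. Without scaling Eif1b lay at 0.74, Eif2s3y at 0.69, Eif3h at 0.65, Eif3f at 0.62, Eif3k at 0.59, Eif4b at 0.58, Eif4enif1 at 0.50, Eif5a2 at 0.39, Eif2ak3 at 0.67 and Ago1 at 0.73, and the called Mknk2 at 0.19. With the percentile over detected probes Eif2s3x lay at -0.083, Eif2b2 at -0.043, Eif3l at -0.098, Eif3c at -0.12, Eif4h at -0.014, Eif4ebp3 at -0.12 and Ago2 at -0.11. Under quantile normalization Eif2s3x lay at -0.088, Eif3h at 0.19, Eif4ebp3 at -0.098, Ago2 at -0.12 and Ago1 at 0.029. With the normexp background Eif1b lay at 0.11, Eif2s3y at 0.061, Eif3h at 0.40 and Eif3k at 0.011. With probes averaged Eif3c lay at -0.18 and Ago2 at -0.10. With 1 array left out, the lowest and highest changes were -0.061 and 0.058 for Eif1b, -0.016 and 0.71 for Eif2a, -0.17 and 0.26 for Eif2s3x, -0.18 and 0.074 for Eif2s3y, -0.0025 and 0.43 for Eif3e, -0.071 and 0.13 for Eif3l, and -0.14 and 0.14 for Eif3c. They were -0.36 and 0.11 for Eif3f, -0.016 and 0.31 for Eif4g1, -0.35 and 0.016 for Eif4b, -0.26 and 0.11 for Eif2ak3, -0.18 and 0.18 for Eif4ebp3, -0.19 and 0.22 for Ago2, and -0.092 and 0.056 for Ago1. These fits leave 1 group with a single array, which is assumed to vary like the other group.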
